A study of Mus musculus with 6 samples.

Results

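The genes described here are 40 genes of DNA replication and the cell cycle, chosen by name from the 30889 gene rows of a table of mouse liver transcripts. They were set in 4 groups by their known role: 10 that license replication origins, 6 that supply nucleotides or copy DNA, 9 that control the passage from G1 to S phase, and 15 that act in G2 and mitosis. All 40 had a row and all 40 passed the filter on low counts. Livers came from mice treated by mouth for 14 days with a water extract of the herb Emilia sonchifolia (extract, 3 libraries) or with phosphate buffered saline (control, 3 libraries). Strain, sex, age and dose are not in the labels, nor whether a library stands for its own animal. A p-value is therefore set by variation among these libraries, and that variation may be technical.

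As background, adult hepatocytes seldom divide, and many carry more than a diploid genome. A cell that returns to the cycle first makes D cyclins, which act with Cdk4 or Cdk6 to free E2F transcription factors, and E2F then drives the genes of origin licensing and DNA synthesis. Licensing loads a ring of 6 subunits, Mcm2 to Mcm7, onto origins, where it later unwinds DNA. Mitotic genes follow, many of them through promoter elements named CHR (cell cycle genes homology region) and CCAAT.

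Letters of these elements were sought in the genes' promoters. The 4 sequences below are the 250 bases before the RefSeq transcript start on GRCm38.p6, written 5′ to 3′ along the gene, with capitals marking E2F-type letters (TTTGGCGC, TTTCCCGC or TTTCGCGC) and CHR-type letters (TTTGAA or TTCGAA) on either strand. Mcm6 and Mcm5 are shown because they had the largest rises of the 40 genes and hold E2F-type letters, Top2a because it holds 4 CHR-type matches, and Cdk1 because it holds both kinds. The calls of Cdk1 and Top2a were not stable, as described with their values.
Mcm6, chr1:128359706-128359955, minus strand: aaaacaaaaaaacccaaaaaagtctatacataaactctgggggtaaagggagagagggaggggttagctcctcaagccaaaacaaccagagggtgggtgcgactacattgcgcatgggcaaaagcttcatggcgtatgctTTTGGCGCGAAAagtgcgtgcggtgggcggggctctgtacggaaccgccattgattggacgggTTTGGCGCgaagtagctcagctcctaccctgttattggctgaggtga
Mcm5, chr8:75109259-75109508, plus strand: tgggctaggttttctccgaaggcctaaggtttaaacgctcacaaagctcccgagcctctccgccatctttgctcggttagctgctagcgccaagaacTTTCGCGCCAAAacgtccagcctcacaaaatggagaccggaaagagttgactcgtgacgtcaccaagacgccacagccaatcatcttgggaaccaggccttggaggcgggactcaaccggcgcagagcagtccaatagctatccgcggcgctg
Cdk1, chr10:69352913-69353162, minus strand: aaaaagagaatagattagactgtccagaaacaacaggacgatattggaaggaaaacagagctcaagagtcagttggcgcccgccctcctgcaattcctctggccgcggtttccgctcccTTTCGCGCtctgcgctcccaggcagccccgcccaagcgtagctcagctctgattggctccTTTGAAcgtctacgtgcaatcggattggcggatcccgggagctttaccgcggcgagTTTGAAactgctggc
Top2a, chr11:99024190-99024439, minus strand: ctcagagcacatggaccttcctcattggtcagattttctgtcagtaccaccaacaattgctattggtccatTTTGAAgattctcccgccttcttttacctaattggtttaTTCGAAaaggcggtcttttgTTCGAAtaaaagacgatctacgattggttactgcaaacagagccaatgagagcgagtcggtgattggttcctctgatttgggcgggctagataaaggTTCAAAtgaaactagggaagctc
In Mcm6 and Mcm5, neighbouring matches on opposite strands overlap and appear as one longer stretch of capitals. RefSeq windows of 300 bases, from 250 before to 50 after the start, were matched by symbol for 31 of the 40 genes, Mcm7 and E2f2 having 2 windows each. The other 9 were Mcm4, Gins2, Ccnd1, Ccnd2, Ccne2, Ccna2, Wee1, Foxm1 and Aurkb.

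Among called genes, Mcm4, Ccnd1 and Wee1 thus had no window. The windows of Mcm2, Pcna, Rrm1, Top2a and E2f8 held no E2F-type letters, and those of Cdk4 and E2f1 held none of the motifs. Of the 11 genes called higher that had a window, 5 held E2F-type letters (45.5%). So did 6 of the 20 genes with a window that were not called higher (30.0%). The bases taken before the RefSeq start of E2f1 (154569427 to 154569676) lay inside its gene span, which ends at 154569892 on the minus strand. That window may therefore not cover its main promoter. The upstream bases of Cdc6, of Mcm7 and of 1 window of E2f2 also lay inside their gene spans. Of the 9 windows of licensing genes, 7 held E2F-type letters (77.8%), against 1.84% of all 32851 windows in the table. They were in windows of Cdc6, Cdt1, Mcm3, Mcm5, Mcm6, Mcm7 and Orc1, and not in that of Mcm2 or in the other of the 2 windows of Mcm7. Of the 11 windows of mitotic genes, 9 held CHR-type letters (81.8%), against 19.2% of all windows, and 1 held E2F-type letters, that of Cdk1. CCAAT on either strand was in 90.9% of the mitotic windows and in 77.8% of the licensing windows, against 37.4% of all windows. Among DNA synthesis genes 1 of 6 windows held E2F-type letters (Pola1), and among G1/S genes 2 of 7 did (Cdk2 and E2f2). All windows served as the background without matching for base composition, and a match is a description of letters only.

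**Figure D1:**
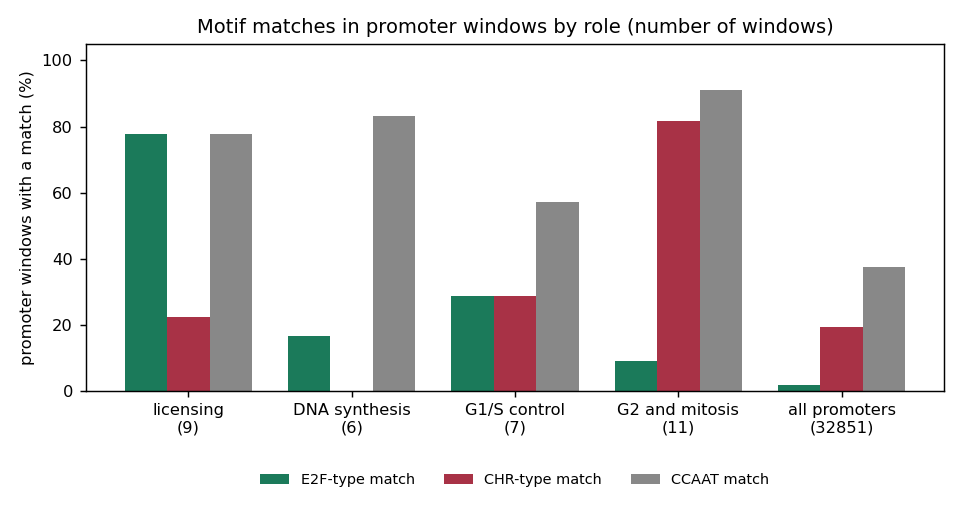
Share of promoter windows (y axis, percent) that hold E2F-type, CHR-type or CCAAT letters, for each role and for all windows (x axis, number of windows in brackets). E2F-type letters were in 77.8% of licensing windows and CHR-type letters in 81.8% of windows of the G2 and mitosis genes.

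The values are whole-number estimated counts per gene and FPKM (fragments scaled to transcript length and library size), both made by the authors. The libraries held 51219533 to 61432016 counts. Among low counts the value 4 is the most frequent, with 6292 entries against 5334 at 1 and 4117 at 3, so 1 read pair may add about 4 counts. On that scale Orc1, the lowest of the 40 genes with 15 to 25 counts a library, would rest on 3.75 to 6.25 read pairs, and 10 of the 40 genes averaged under 100 counts in a group. Levels ran from 0.0868 FPKM (Orc1) to 10.6 FPKM (Cdk4) as means over all 6 libraries. Hepatocyte markers were abundant, as the labelled tissue requires, Alb (albumin) alone standing at 26017 FPKM in extract and 29910 FPKM in control livers. Of 10 such markers 2 rose and 5 fell (40077.5 to 41005.5 FPKM summed in extract, 40580.2 to 49789.6 in control), where 14.2% of all genes tested rose and 12.8% fell.

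Extract was compared with control by edgeR's quasi-likelihood test over the 18071 genes past the filter, and a gene is called at an adjusted p under 0.05. Of the 40 genes, 14 rose and 1 fell with the extract. In bulk tissue a change in the number of cells of a type and one in RNA per cell cannot be told apart. Over all genes tested 26.9% were called, 14.2% higher and 12.8% lower, so the share of the 40 that rose (35.0%) was above the background and the share that fell was below it. By non-overlap of the scaled values, 19 of the 40 were higher in every extract library than in any control library and 1 was lower, where over all genes 22.2% were higher and 22.5% lower. The median log2 fold change of the 40 genes was 0.31, against -0.02 for all genes tested. Of all called genes 52.6% were higher, a share that was 38.6% with limma on FPKM as deposited, where 10 of the 40 genes were called higher and 1 lower. The count over all genes was 3237 without extract 2, against 4870 with all libraries, and the calls of lower genes, 2309 in all, numbered 1480 without extract 1, 1461 without extract 2 and 1442 without control 2.

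**Figure D2:**
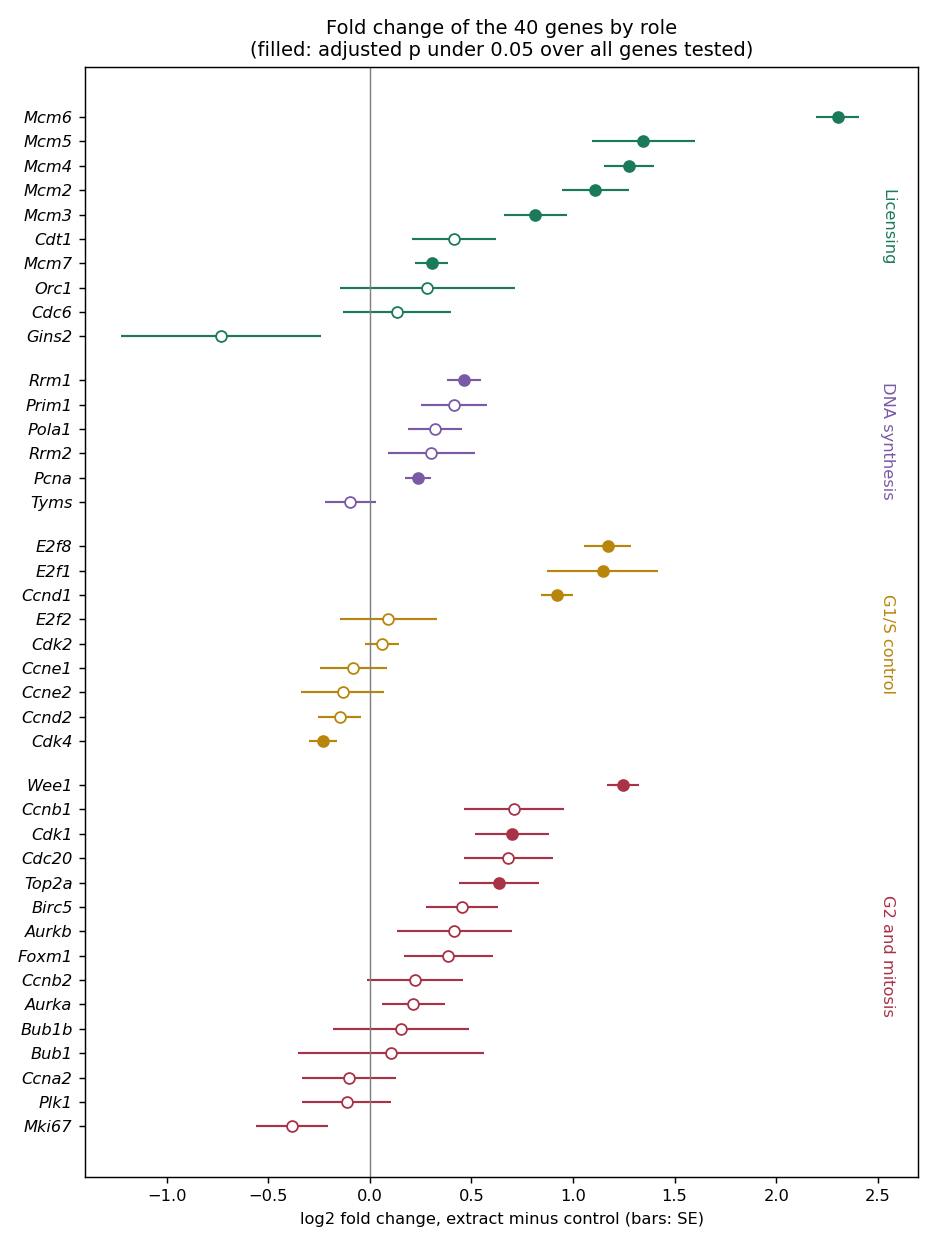
Log2 fold change of extract over control for each of the 40 genes (x axis; bars are the SE), grouped by role and ordered by size within each role (y axis). Filled points passed the test, and Mcm6 stands farthest to the right at 2.30.

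The rise was largest in the Mcm ring. All 6 subunits rose, 1.24-fold to 4.93-fold, while none of the other 4 licensing genes was called, and the median log2 fold change was 1.19 for the ring and 0.21 for those 4. Summed over the 6 subunits, the level was 12.7, 12.9 and 13.5 FPKM in extract livers, against 6.85, 6.72 and 5.73 FPKM in control livers. Every extract library was above every control library by a margin larger than the spread within either group.

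Mcm6, on chromosome 1 (128331590 to 128359664, GRCm38), had 821, 967 and 1042 counts in extract livers, against 188, 225 and 181 counts in control livers. Its level was 3.03 ± 0.29 FPKM with the extract and 0.636 ± 0.026 FPKM in control (SD, n = 3 each). It rose 4.93-fold, or 2.30 ± 0.11 on the log2 scale (± SE throughout for such changes; edgeR adjusted p = 9.20e-06). The groups were far apart, and the lowest extract library held over 3 times the counts of the highest control library.

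Mcm5, on chromosome 8 (75109569 to 75128439), had 497, 556 and 574 counts in extract livers, against 272, 263 and 128 in control livers. Control 3 was low for this gene, and the groups did not overlap (log2 fold change 1.35 ± 0.25, edgeR adjusted p = 0.00591). Mcm4, on chromosome 16 (15623897 to 15637400), had 504, 501 and 450 counts with the extract and 176, 244 and 205 counts in control, a 2.42-fold rise (log2 scale 1.28 ± 0.12, edgeR adjusted p = 0.000244). With Mcm6 and Mcm7, Mcm4 forms the core of the ring that unwinds DNA.

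Mcm2, on chromosome 6 (88883474 to 88898780), had 429, 559 and 528 counts in extract livers and 270, 262 and 192 in control livers, a 2.16-fold rise (edgeR adjusted p = 0.00201). Mcm3, on chromosome 1 (20802968 to 20820312), had 531, 482 and 530 counts in extract livers and 308, 380 and 228 in control livers, a 1.76-fold rise (edgeR adjusted p = 0.00640). For these genes too the groups did not overlap.

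Mcm7, on chromosome 5 (138164583 to 138172422), was the subunit with the highest level in control livers and the smallest rise. It had 769, 798 and 908 counts in extract livers, against 633, 782 and 663 in control livers, which overlap as raw counts because control 2 was the deepest library. After scaling they did not overlap, and it rose 1.24-fold (log2 scale 0.31 ± 0.08, edgeR adjusted p = 0.0266). The call was lost without extract 1, extract 3 or any 1 of the controls, at adjusted p of 0.0529 to 0.0813, and with the replicate number as a block (edgeR adjusted p = 0.0508). Genes on the other strand (Cops6, Ap4m1) and 3 microRNA genes lie within its span, and no use of strand is stated.

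The subunits stood in a different proportion in the 2 groups. By FPKM, Mcm6 was the highest subunit in every extract library and Mcm7 in every control library, and Mcm2 was the lowest in all 6 libraries. The ratio of the highest to the lowest FPKM was 2.85, 2.58 and 2.95 in extract livers, against 3.70, 4.71 and 5.43 in control livers. Mcm6 over Mcm7, also by FPKM, was 1.01, 1.15 and 1.09 in extract livers and 0.280, 0.271 and 0.258 in control livers.

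**Figure D3:**
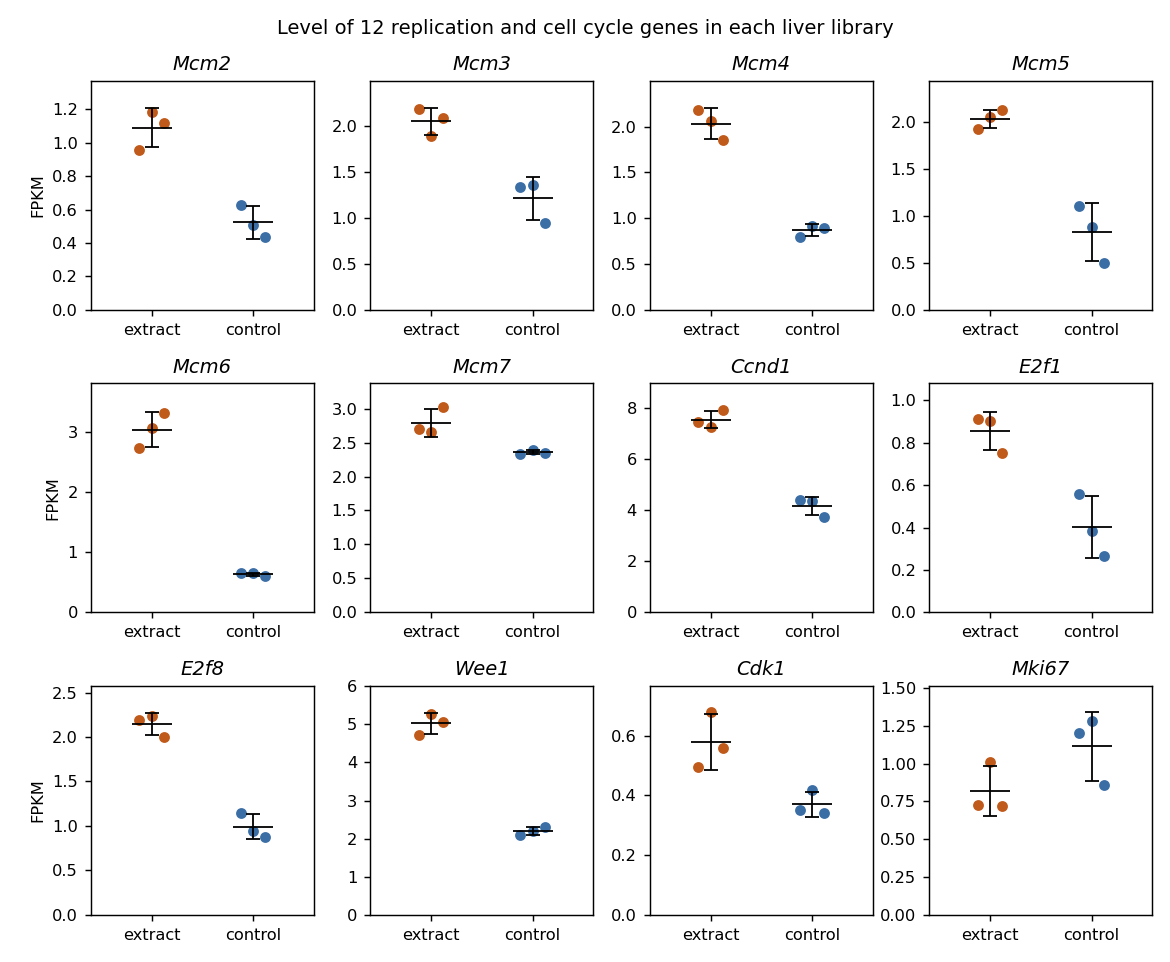
FPKM (y axis, from 0, own scale in each panel) of 12 of the 40 genes in each library, extract left and control right, with the mean and SD of 3 libraries. Mcm6 stands at 3.03 FPKM in extract and 0.636 FPKM in control livers, whereas Mki67 overlaps between groups.

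The genes that recruit the ring to origins were not called. Orc1, a subunit of the origin recognition complex, had 25, 22 and 21 counts with the extract and 22, 15 and 20 in control. Cdc6, which loads the ring, had 61, 59 and 73 counts with the extract and 67, 67 and 48 in control. Cdt1, the other loading factor, had 265, 365 and 422 counts with the extract and 310, 285 and 216 in control (edgeR adjusted p = 0.178). All 3 overlapped between groups, and at this depth changes as small as those of Mcm7 would not be detectable for Orc1, whose SE was 0.43 on the log2 scale. Gins2, a subunit of the GINS complex that activates the ring, was uneven in both groups, with 283, 166 and 108 counts in extract livers and 353, 513 and 121 in control livers (edgeR adjusted p = 0.316).

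Of the 6 genes of DNA synthesis, 2 rose by small amounts, and the median log2 fold change of the 6 was 0.31. Rrm1, the large subunit of ribonucleotide reductase, which makes deoxynucleotides, had 879, 785 and 882 counts with the extract and 597, 711 and 608 in control, a 1.38-fold rise (edgeR adjusted p = 0.00542). Pcna, the sliding clamp of DNA polymerases, had 1354, 1580 and 1458 counts with the extract and 1200, 1393 and 1261 in control, a 1.18-fold rise (edgeR adjusted p = 0.0258). The Pcna call was lost without extract 2, extract 3, control 1 or control 2 (edgeR adjusted p = 0.0512 to 0.0893) and with the replicate block (0.0727). Pcna has named pseudogenes that can share its reads.

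Rrm2, the small subunit of the reductase, whose level usually follows S phase, had 163, 276 and 226 counts with the extract and 193, 221 and 144 in control (edgeR adjusted p = 0.341). Rrm1 and Rrm2 make 1 enzyme, and the small subunit overlapped between groups. Pola1 and Prim1, the catalytic subunits of the polymerase that starts each DNA strand and of its primase, did not overlap between groups after scaling, the extract side being higher, but missed the threshold, with log2 fold changes of 0.32 ± 0.13 and 0.41 ± 0.16. Tyms, thymidylate synthase, had 320, 350 and 340 counts in extract livers and 373, 440 and 308 in control livers (edgeR adjusted p = 0.618).

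Among the 9 G1/S control genes 3 rose, 1 fell and 5 were not called, with a median log2 fold change of 0.06. Ccnd1 (cyclin D1, chromosome 7, 144929931 to 144939925), which links growth signals to the cycle in hepatocytes, had 2248, 2313 and 2520 counts with the extract and 1260, 1508 and 1117 in control. Its level was 7.53 ± 0.35 FPKM in extract livers and 4.15 ± 0.36 FPKM in control livers (SD, n = 3 each; log2 fold change 0.92 ± 0.08, edgeR adjusted p = 0.000128). The groups were well apart. Ccnd2 (cyclin D2) had 597, 582 and 551 counts with the extract and 558, 847 and 601 in control (edgeR adjusted p = 0.346). The ratio of Ccnd1 to Ccnd2 FPKM was 7.54, 7.95 and 9.16 in extract livers, against 4.52, 3.56 and 3.72 in control livers.

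E2f1, an activating E2F factor, had 186, 194 and 161 counts in extract livers, against 108, 90 and 54 in control livers. It rose 2.21-fold (log2 fold change 1.15 ± 0.27, edgeR adjusted p = 0.0167), with control 3 the lowest, and the call was lost without extract 1, extract 2 or control 2 (edgeR adjusted p = 0.0566 to 0.0696). E2f8, an atypical E2F that represses E2F targets and promotes polyploidy in mouse hepatocytes, had 769, 826 and 739 counts with the extract and 384, 381 and 305 in control. It rose 2.25-fold (log2 fold change 1.17 ± 0.12, edgeR adjusted p = 0.000298), so an activator and a repressor of the same targets both rose. E2f2, another activating factor, had 94, 138 and 121 counts with the extract and 122, 141 and 81 in control (edgeR adjusted p = 0.817).

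Cdk4, the kinase partner of D cyclins and the gene with the highest level of the 40, was the 1 gene that fell. It had 1960, 2113 and 2116 counts in extract livers and 2125, 3087 and 2370 in control livers. It fell by 0.23 ± 0.07 on the log2 scale (edgeR adjusted p = 0.0405), a call lost without extract 1, extract 2, extract 3, control 2 or control 3 (0.0694 to 0.152) and with the replicate block (0.0669). Cdk2 and its cyclin partners Ccne1 and Ccne2 overlapped between groups, with log2 fold changes of 0.06, -0.08 and -0.13. For Cdk2, at 801, 984 and 812 counts with the extract and 809, 990 and 786 in control, the SE was 0.08.

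Of the 15 genes of G2 and mitosis, 3 rose and 12 were not called. The median log2 fold change was 0.39, close to the 0.31 of the 25 G1/S and replication genes, of which 11 rose and 1 fell. The share of genes that rose was 20.0% among the mitotic genes and 44.0% among the 25, against 14.2% of all genes tested. The medians were close, and no test of the difference in shares was made. Wee1 had the largest rise of the 15, and without it the median of the other 14 was 0.30. The number of the 15 called higher was 1 without extract 2, extract 3, control 1 or control 3. Without control 3, Mki67 was also called, as lower.

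Wee1 (chromosome 7, 110122046 to 110143286) encodes a kinase that holds Cdk1 inactive before mitosis, and in mouse liver its transcript is known to follow the circadian clock. It had 1039, 1221 and 1169 counts in extract livers, against 438, 557 and 503 in control livers. Its level was 5.02 ± 0.28 FPKM with the extract and 2.21 ± 0.11 FPKM in control (SD, n = 3 each; log2 fold change 1.25 ± 0.08, edgeR adjusted p = 3.53e-05). The groups were far apart.

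Cdk1, the kinase that drives mitosis, had 160, 228 and 188 counts with the extract and 107, 154 and 108 in control. It rose 1.62-fold (log2 fold change 0.70 ± 0.18, edgeR adjusted p = 0.0249), and the call was lost without extract 2, extract 3, control 1 or control 3 (0.0551 to 0.0893). Top2a, the topoisomerase that untangles sister chromatids, had 395, 677 and 449 counts with the extract and 282, 440 and 297 in control, a 1.56-fold rise (edgeR adjusted p = 0.0456). Extract 2 was high for both genes. The Top2a call was lost without extract 2, extract 3 or any 1 of the controls (0.0640 to 0.132), and the log2 fold change of 0.64 was 0.40 without extract 2.

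Of the 15 mitotic genes 6 were higher in every extract library after scaling, where 22.2% of all genes tested were. Among those 6, Ccnb1, Cdc20 and Birc5 missed the threshold. Ccnb1, cyclin B1 and the partner of Cdk1, had 82, 82 and 108 counts with the extract and 46, 68 and 59 in control (edgeR adjusted p = 0.0653). Cdc20, which activates the complex that ends metaphase, had 112, 149 and 102 counts with the extract and 73, 95 and 67 in control (edgeR adjusted p = 0.0534). The span of Cdc20 overlaps Elovl1 on the other strand. Birc5 (survivin), of the chromosomal passenger complex, had 184, 154 and 182 counts with the extract and 113, 164 and 120 in control (edgeR adjusted p = 0.0963). The scaled values of Ccnb1, Cdc20 and Birc5 did not overlap between groups.

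The proliferation marker Mki67 (Ki-67) was not higher. It had 471, 690 and 488 counts in extract livers, against 739, 953 and 547 in control livers, with overlapping groups and a log2 fold change of -0.38 ± 0.18 (edgeR adjusted p = 0.153). Without control 3 it was lower with the extract at an adjusted p of 0.0426. Ccna2 (cyclin A2) had 119, 216 and 178 counts with the extract and 166, 252 and 156 in control, and Plk1, a kinase of mitotic entry, had 80, 70 and 72 counts with the extract and 77, 89 and 83 in control. Neither was called, with log2 fold changes of -0.10 and -0.11.

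The remaining mitotic genes were not called and overlapped between groups. Foxm1, the transcription factor of late cycle genes, had 100, 158 and 124 counts with the extract and 89, 128 and 87 in control (edgeR adjusted p = 0.235). Aurka and Aurkb, the aurora kinases of the spindle and of the passenger complex, had log2 fold changes of 0.21 ± 0.15 and 0.42 ± 0.28, the error of Aurka being smaller than that of Cdk1 (0.18). Ccnb2, cyclin B2, had 109, 111 and 75 counts with the extract and 72, 101 and 90 in control. Bub1 and Bub1b, kinases of the spindle checkpoint, varied most among the extract libraries, Bub1 with 51, 75 and 20 counts against 47, 45 and 47 in control. Bub1b had 63, 46 and 101 counts with the extract and 67, 74 and 55 in control, and the SEs of both genes were 0.46 and 0.33 on the log2 scale.

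Other genes of the same steps were read from lists of further replication, G1/S and mitotic genes. Of 50 further replication genes 13 rose, 2 fell and 35 were not called, with a median log2 fold change of 0.25. Pole, the catalytic subunit of the leading-strand polymerase, had 265, 412 and 309 counts with the extract and 116, 109 and 68 in control, a 3.46-fold rise (edgeR adjusted p = 0.00138). Uhrf1, which recruits the maintenance DNA methyltransferase to new DNA, rose 2.91-fold (edgeR adjusted p = 0.00324) and Lig1, the ligase that joins lagging-strand fragments, 1.68-fold (edgeR adjusted p = 0.00357). Pole4, a small subunit of the same polymerase as Pole, fell by 0.54 on the log2 scale (edgeR adjusted p = 0.00103), with 1093, 1046 and 1175 counts with the extract and 1492, 1891 and 1627 in control.

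Of 18 further G1/S genes 3 rose, 1 fell and 14 were not called, with a median of 0.04. The share that rose was 16.7%, near the 14.2% of all genes tested, of which 12.8% fell. Myc, a transcription factor that promotes growth and cycle entry, had 1005, 1093 and 1224 counts with the extract and 337, 317 and 248 in control, a 3.80-fold rise (edgeR adjusted p = 6.58e-05). The groups were far apart. Cdk6, the other partner of D cyclins, rose by 0.58 ± 0.08 on the log2 scale (edgeR adjusted p = 0.00186) and Rbl2, a pocket protein that restrains E2F in resting cells, 1.15-fold (edgeR adjusted p = 0.0405). Mycn, a relative of Myc, fell by 1.13 on the log2 scale (edgeR adjusted p = 0.00516), with 191, 209 and 141 counts with the extract and 373, 371 and 467 in control.

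Of 45 further mitotic genes 11 rose, 0 fell and 34 were not called, with a median of 0.44. Spc24, of the kinetochore, rose 2.02-fold (edgeR adjusted p = 0.00220), Tpx2, a spindle assembly factor, 2.24-fold (0.0147), Nek2, a centrosome kinase, 1.72-fold (0.0110), and Smc4, a condensin subunit, 1.39-fold (0.00459). Tpx2 had 155, 168 and 170 counts with the extract and 98, 60 and 66 in control. Among all 60 mitotic genes read here 14 rose (23.3%), and among all 93 genes of replication and G1/S control 27 rose (29.0%) and 4 fell, where 14.2% and 12.8% of all genes tested rose and fell.

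Among 7 inhibitors of cyclin-dependent kinases 1 rose, 1 fell, 4 were not called and 1 was not tested. Over all genes tested 14.2% rose and 12.8% fell, so 1 of 6 in each direction is near the background. Cdkn2c (p18), an inhibitor of Cdk4 and Cdk6, had 334, 445 and 403 counts with the extract and 224, 279 and 210 in control, a 1.72-fold rise (edgeR adjusted p = 0.00411). Cdkn1c (p57) had 67, 63 and 88 counts with the extract and 129, 168 and 104 in control, and fell by 0.82 on the log2 scale (edgeR adjusted p = 0.0351). Cdkn1a (p21), the p53 target, had 753, 769 and 690 counts with the extract and 516, 710 and 816 in control (edgeR adjusted p = 0.466), and Cdkn1b (p27) had a log2 fold change of -0.03 ± 0.06. Cdkn2b and Cdkn2d were not called either, at adjusted p of 0.777 and 0.842. Cdkn2a (p16 and p19Arf) had 0, 4 and 0 counts in extract livers and 0, 0 and 6 in control livers, under the filter.

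Markers of blood and immune cells were lower in the extract libraries. For the counts below, 14.2% of all genes tested rose and 12.8% fell. Of 12 neutrophil and monocyte markers 9 fell and 0 rose, and their summed level was 175 to 183 FPKM in extract livers, against 380 to 458 FPKM in control livers. Lcn2, which hepatocytes also make in inflammation, held most of that sum, and the other 11 summed to 12.2 to 15.8 FPKM in extract livers, against 56.9 to 113 FPKM in control livers. Of 10 red cell markers 8 fell and 0 rose (198 to 236 FPKM summed in extract, 1272 to 1618 in control). Of 8 markers of red cell and myeloid precursors 3 fell, Mpo, Elane and Ctsg of immature granulocytes, and 0 rose (up to 22.6 FPKM summed in extract, 28.0 to 38.0 in control). Most of that sum was Prtn3, and the other 7 summed to 2.12 to 2.76 FPKM in extract livers and 7.04 to 14.1 FPKM in control livers.

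The red cell marker Epb42 and the precursor markers Ctsg and Gata1 were at 0 in extract 1 and extract 3, and Ermap was at 0 in extract 3. Gata1 was also at 0 in control 3. B and plasma cell markers fell in 6 of 10 (37.8 to 47.6 FPKM summed in extract, 87.6 to 149 in control), T and NK cell markers in 7 of 12 (6.13 to 6.47 and 10.9 to 13.4), Kupffer cell markers in 11 of 11 (297 to 313 and 496 to 522) and endothelial markers in 6 of 10 (47.6 to 51.0 and 61.4 to 68.8), and 0 rose in these 4 lists. Of 7 cholangiocyte markers 1 rose and 1 fell (33.5 to 40.9 FPKM summed in extract, 39.8 to 52.7 in control). That is near the 14.2% higher and 12.8% lower over all genes tested. The part of these markers in the values of the 40 genes was not tested.

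Markers of pancreas and muscle were uneven among the libraries. Of 8 such markers 0 were called, against 26.9% of all genes tested (137 to 180 FPKM summed in extract, 46.4 to 101 in control). The pancreas genes Pnlip and Cpa1 were at 0 in control 1 and control 2, with Ctrb1 and Prss2 at 0 in control 1, and all 4 were present in control 3 and in the extract libraries. The muscle gene Acta1 was at 0.216 FPKM in control 3 and at 38.4 to 69.1 FPKM in the other 5 libraries. Control 3 was thus like the extract libraries in the pancreas markers and unlike them in Acta1. It had the lowest summed level of the Mcm ring, 5.73 FPKM, and without control 3, 11 of the 40 genes were called higher. Whether pancreas or muscle markers bear on the values of the 40 genes was not tested.

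**Figure D4:**
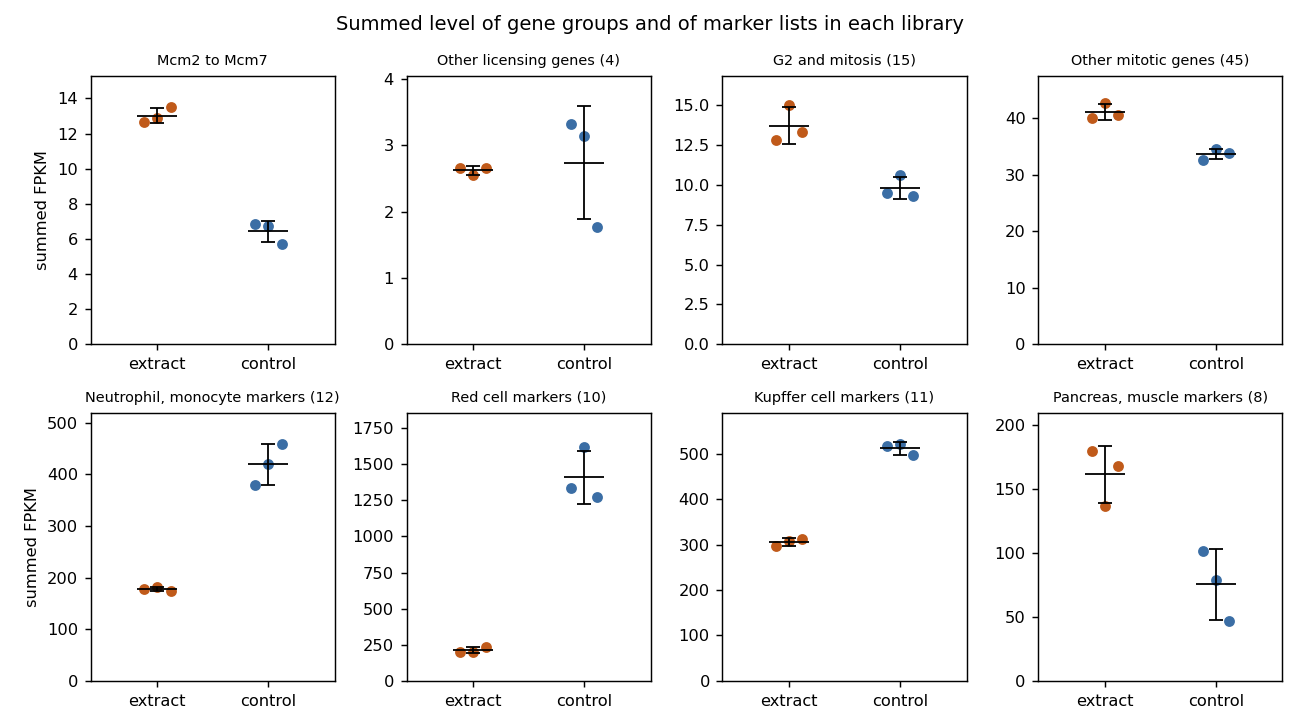
Summed FPKM (y axis, from 0) of groups of cycle genes and of marker lists in each library, extract left and control right, with the mean and SD of 3 libraries and the number of genes in brackets. The Mcm ring stands at 12.7 to 13.5 FPKM in extract and 5.73 to 6.85 FPKM in control livers, and the 15 genes of G2 and mitosis stand at 12.9 to 15.02 FPKM in extract and 9.32 to 10.6 FPKM in control livers.

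Summed over each role, G1/S and replication genes and mitotic genes were both higher in every extract library. The 25 genes of G1/S and replication summed to 53.8, 55.2 and 55.1 FPKM in extract livers and 45.1, 46.1 and 40.8 FPKM in control livers. Outside the Mcm ring, the 4 licensing genes overlapped (up to 2.66 FPKM summed in extract, 1.77 to 3.31 in control). Without the D cyclins, the 7 other G1/S control genes also overlapped (16.3 to 17.1 in extract, 16.5 to 18.7 in control). The 6 DNA synthesis genes did not overlap (13.4 to 14.5 in extract, 11.9 to 12.5 in control). The 15 genes of G2 and mitosis summed to 12.9, 15.02 and 13.3 FPKM in extract livers and 9.50, 10.6 and 9.32 FPKM in control livers. Without Wee1, which has the highest level of the 15, the other 14 summed to 8.12, 9.75 and 8.24 FPKM in extract livers. In control livers they summed to 7.41, 8.40 and 7.01 FPKM, and the groups overlapped narrowly. All these sums are of FPKM as deposited, whereas the overlap of single genes was read on the scaled values. Overlap of the sums may therefore depend on the scaling. The 45 further mitotic genes summed to 40.1 to 42.7 FPKM in extract livers and 32.7 to 34.5 FPKM in control livers, and did not overlap.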

How the data were processed

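Polyadenylated RNA of 6 liver samples was sequenced, since the labels' protocols name oligo(dT) beads. Tools listed in the submitters' processing notes are edgeR, StringTie 1.3.4d, HISAT2 2.0.4 and cutadapt 1.9, and their settings and the build were not given in the sources read. The deposited estimated counts are whole numbers, made by the authors, and were used without rounding. The FPKM values were also deposited by the authors. A further 6 sample columns could not be matched to a label and were set aside. Gene spans are those of the table. GENCODE M21 (GRCm38) holds all 40 genes, 37 of them with the same span. Another annotated gene overlaps the span of 19 of the 40.

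The test on counts was that of edgeR 4.0.16 (R 4.3.3, filterByExpr defaults, TMM factors, quasi-likelihood test, two-sided, Benjamini-Hochberg adjustment over the 18071 genes tested, threshold 0.05). The SE of a fold change comes from the fold change and its F statistic. Scripts were tested on simulated data. Alternatives were DESeq2 1.42.0, limma 3.58.1 on log2(FPKM + 0.5) and other pseudocounts, other filters, counts divided by 4, a replicate block and each library left out. Limma on FPKM with TMM factors was added after seeing the data.

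The 40 genes, the lists and the tests were chosen with earlier results of these data known. All 40 are described. Of each further list the 4 genes with the smallest p were to be named, all kinase inhibitors, and of each marker list up to 3 of the highest genes, of which few are given. Marker genes at 0, the precursor genes that fell and the pancreas and muscle genes, Lcn2 and Prtn3 were named after their values were seen. The values of 1 marker gene are not reported here. Motif letters were counted on both strands.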

Additional observations from a re-analysis of the deposited data

How the results depend on the processing

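Of the 15 called genes, 8 kept call and direction under each of 16 alternatives (Mcm2, Mcm3, Mcm4, Mcm5, Mcm6, Ccnd1, E2f8 and Wee1). The other 7 (Mcm7, Pcna, Rrm1, Cdk4, E2f1, Cdk1 and Top2a) lost the call under at least 1, and 0 changed direction. Of the 25 genes not called, 2 were called under an alternative (Cdc20 and Mki67) and 6 changed sign without a call. The count of higher genes, 14, was 8 with limma on FPKM without a filter, and 10 to 12 with a library left out. The count of lower genes, 1, was 0 with no filter on counts, with limma on FPKM without a filter or with TMM factors, and with the replicate block, and 0 to 1 with a library left out. Without control 3 the lower gene was Mki67 and not Cdk4. The calls over all genes numbered 3237 to 4706 with a library left out.

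The replicate numbers gave no sign of a pairing of the libraries. Same-numbered deviations correlated at -0.12, -0.03 and -0.09, and unlike-numbered ones at -0.07 to 0.15. Deviations from a mean of 3 libraries constrain each other, so these values cannot exclude a pairing. With the replicate block 12 of the 40 genes were higher and 3746 genes were called.

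Limma on FPKM, which differs in pseudocount and in scaling, gave smaller median log2 fold changes, and the cause was not tested. For the Mcm ring (1.19) they were 0.76 with a pseudocount of 0.5, with or without a filter, 0.58 with 1 and 0.81 with TMM factors. For DNA synthesis genes (0.31) they were 0.16 with 0.5, with or without a filter, 0.21 with 0.1, 0.14 with 1 and 0.22 with TMM factors. For mitotic genes (0.39) they were 0.12 with 0.5, with or without a filter, 0.24 with 0.1, 0.080 with 1 and 0.15 with TMM factors, and 0.29 to 0.48 with a library left out. For the 25 G1/S and replication genes (0.31) they were 0.18 with 0.5, 0.17 with 1 and 0.17 without a filter. The licensing median (0.61) was 0.42 with limma on FPKM without a filter. It was 0.81 with a minimum of 40 counts and 0.80 with counts divided by 4, since Orc1 was then not tested. The G1/S control median (0.06) was -0.078 to 0.11 with a library left out, the negative value coming without control 3; the cause was not tested.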
